A study of Mus musculus with 2 samples.

Results

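Mature neutrophils were described here among cells that the series' design text gives as splenocytes of mice at day 8 of infection with LCMV-cl13, a persisting variant of lymphocytic choriomeningitis virus. A cell (a droplet barcode with its own RNA counts) was taken as a mature neutrophil by 7 criteria on its unique molecular identifier (UMI) counts, each UMI standing for 1 captured RNA molecule. Members were chosen by these values alone: at least 20 UMIs of S100a8 and S100a9 together, at least 2 of Csf3r and Retnlg together, fewer than 10 of Camp, Ngp and Ltf, fewer than 5 of Mpo, Elane and Prtn3, and none of Cd3e, Cd79a or Csf1r. This rule found 554 cells among 23397. There were 327 among 14821 cells of PEP-WT mice and 227 among 8576 cells of PEP-619WW mice.

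PEP-WT mice were C57BL/6 mice with wild type Ptpn22. PEP-619WW mice were homozygous for R619W, the mouse form of an autoimmunity-associated allele of PTPN22, made by CRISPR/Cas9 on the C57BL/6 background. The study used males and females aged 6 to 12 weeks, and age and sex were matched between genotypes. The Y-linked genes Ddx3y, Eif2s3y, Uty and Kdm5d held 0 UMIs in the mature neutrophils of both libraries. The sex of the pooled mice was not tested. The comparison asked how the allele alters immune cells during this infection. By the design text, splenocytes of 4 to 5 mice of each genotype were pooled, sorted as live CD45+ cells and made into single-cell libraries. A pair of runs was deposited for each genotype, and the cell numbers given in the methods are those of the run not compared here, so the tissue and infection of the compared pair rest on the design text, which does not tell the runs apart. With 1 library per genotype in the comparison, single mice cannot be told apart, no library of uninfected mice was analysed here, and genotype and library cannot be told apart. The sample labels name liver, a human T cell line and tumor-infiltrating cells, whereas the design text and methods describe splenocytes, and B cells made up 49.8% and 40.7% of the 2 libraries compared here.

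Neutrophils are short-lived phagocytes that leave the bone marrow and kill microbes with granule proteins and oxidants. They fill their granules in a fixed order as they mature: myeloperoxidase and elastase first, then the secondary granule proteins encoded by Camp, Ngp and Ltf, then gelatinase (Mmp9). Mature cells have largely stopped making the early proteins and carry the receptors Csf3r, for the growth factor G-CSF, and Cxcr2, for the chemokines that draw them into tissue. Type I interferon, made in response to virus, acts through its receptor IFNAR to switch on interferon-stimulated genes, many of which encode antiviral proteins.

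Most of these cells held markers that the rule did not use. S100a8 and S100a9, which encode the 2 chains of calprotectin and were fixed as high by the rule, had medians of 85 and 140 UMIs per cell in PEP-WT and 63 and 89 in PEP-619WW. Il1b, encoding interleukin-1β, and G0s2, a lipolysis inhibitor, are such markers of neutrophils. Il1b was found in 96.6% of PEP-WT cells (95% exact binomial interval 94.1 to 98.3) and in 81.5% of PEP-619WW cells (75.8 to 86.3), against 1.68% and 2.52% of B cells, which should lack it. G0s2 was found in 73.4% and 79.7% of the neutrophils and in 0.664% and 2.98% of B cells. Ly6g, the surface antigen that defines mouse neutrophils, was found in 29.4% and 43.6% of the neutrophils and in 0.217% and 0.487% of B cells. Median depth was 1874 UMIs and 769 genes per cell in PEP-WT and 2166 UMIs and 940 genes in PEP-619WW. B cells were deeper, with medians of 2642 and 3332 UMIs.

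A set of cells went against the label, and it was larger in PEP-619WW. Fewer than 3 UMIs of Il1b, Csf3r and Cxcr2 together were present in 9 of 327 PEP-WT cells (2.75%, interval 1.27 to 5.16) and in 53 of 227 PEP-619WW cells (23.3%, 18.0 to 29.4). Within that library, S100a8 and S100a9 made up a median of 3.72% of the UMIs of these cells against 10.1% in the other 174, and ribosomal protein genes 20% against 4.38%. Immunoglobulin genes, the product of plasma cells, made up 4.88% against 0.328%, and median depth was 1119 against 2480 UMIs. RNA of a neutrophil gene was also found in more B cells of that library: Retnlg, encoding a resistin-like secreted protein, was found in 11.6% of PEP-619WW B cells and in 2.87% of PEP-WT B cells. Free RNA and doublets were not told apart. Whether the 53 cells are neutrophils was not tested. Some of the values below are given with and without them, and the others include them and could move without them. The plot of defining transcripts shows them at the left edge of the PEP-619WW panel.

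**Figure D1:**
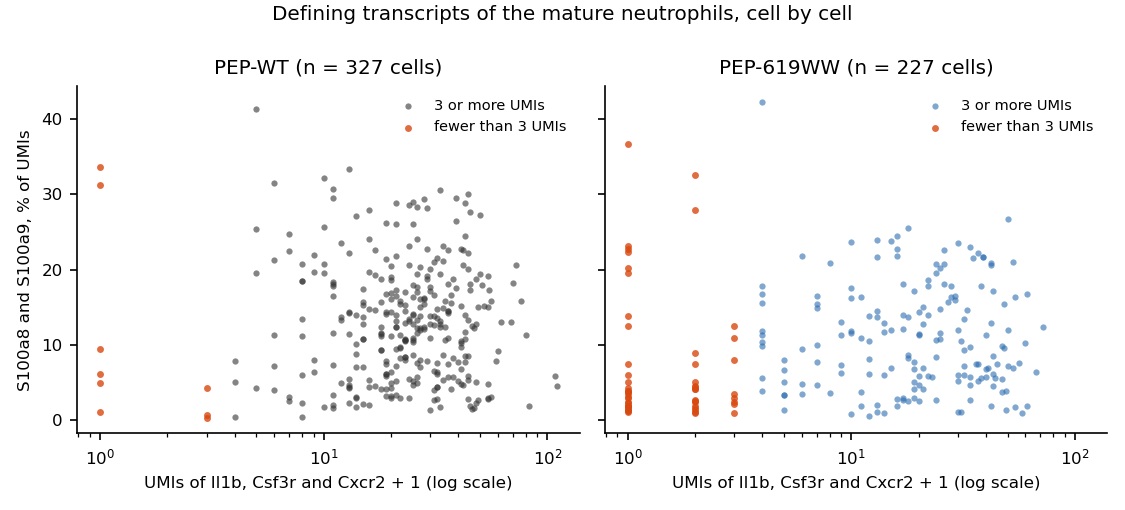
Each point is 1 mature neutrophil: the x axis is its UMIs of Il1b, Csf3r and Cxcr2 plus 1 (log scale) and the y axis the percent of its UMIs from S100a8 and S100a9. Orange marks cells with fewer than 3 UMIs of the 3 genes, 9 of 327 in PEP-WT and 53 of 227 in PEP-619WW, most of which sit low on the y axis in PEP-619WW.

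The edges of the rule also differed between the libraries, in a way that depended on the gene. Between 20 and 39 UMIs of S100a8 and S100a9, just inside, lay 22 PEP-WT and 36 PEP-619WW cells, with Csf3r at 966 and 743 CPM (the UMIs of a gene over all UMIs of the cells, scaled to 1000000). In these inside cells Il1b was at 4334 and 4716 CPM and Retnlg at 3290 and 8207 CPM. Lyz2, at 7886 and 1783 CPM, and Ccr2, at 444 and 92.8 CPM, were higher in PEP-WT there. Just outside, at 10 to 19, lay 9 and 57 cells, with Csf3r at 1111 and 59.1 CPM and Il1b at 3890 and 296 CPM. At the upper edge, 5 to 9 UMIs of Camp, Ngp and Ltf were held by 9 and 26 members, and 10 to 19 by 16 and 27 cells outside. With 2 to 3 UMIs of Csf3r and Retnlg, also inside, lay 16 PEP-WT and 8 PEP-619WW cells. Lyz2 was at 11094 and 1594 CPM there and Ccr2 at 670 and 0 CPM. Whether the PEP-WT cells at these edges are neutrophils was not tested.

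Mature neutrophils were a slightly larger share of the PEP-619WW library, and immature ones a much larger share. Mature cells made up 2.21% of PEP-WT cells (interval 1.98 to 2.46) and 2.65% of PEP-619WW cells (2.32 to 3.01), a difference of 0.441 percentage points (Newcombe interval 0.0357 to 0.866). Without the cells low in Il1b, Csf3r and Cxcr2 the PEP-619WW share was 2.03% and the PEP-WT share 2.15%, so the order turned. Immature neutrophils, which met the same rule but held 10 or more UMIs of Camp, Ngp and Ltf, made up 0.614% and 2.20%. Mature cells were therefore 78.2% of the PEP-WT neutrophils (74.0 to 82.1) and 54.6% of the PEP-619WW neutrophils (49.6 to 59.4), a difference of 23.7 points in size (17.3 to 29.7). These intervals cover counting error only, and with 1 library per genotype no test of genotype was possible. The mature share of the neutrophils was taken with the cells low in Il1b, Csf3r and Cxcr2 kept.

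Secondary granule transcripts were detected in more of the PEP-619WW cells. Camp, Ngp and Ltf, which encode cathelicidin, a cystatin-like granule protein and lactoferrin, were used by the rule up to a cap of 10 UMIs, so their values here are a description. None of the 3 was detected in 81.0% of PEP-WT cells (76.4 to 85.1) and in 48.0% of PEP-619WW cells (41.4 to 54.7). Cells with 3 to 9 UMIs made up 5.81% (3.53 to 8.93) and 22.5% (17.2 to 28.5). The order was the same without the cells low in Il1b, Csf3r and Cxcr2, where 81.1% of 318 PEP-WT cells and 55.2% of 174 PEP-619WW cells had none. Ngp was found in 1.04% of B cells in PEP-WT and 5.56% in PEP-619WW, and the part of RNA from other cells in the difference was not tested.

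**Figure D2:**
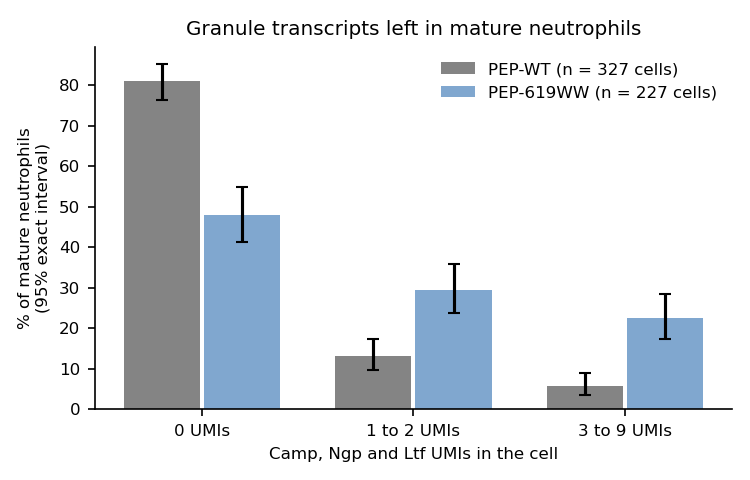
Bars give the percent of mature neutrophils of each library (327 PEP-WT and 227 PEP-619WW cells) that held 0, 1 to 2 or 3 to 9 UMIs of Camp, Ngp and Ltf together, with 95% exact binomial intervals. The PEP-WT bar is higher at 0 UMIs and the PEP-619WW bars are higher at 1 to 2 and 3 to 9 UMIs.

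The calprotectin genes were the most abundant transcripts in both libraries. S100a9 stood at 69496 CPM in PEP-WT and 56329 CPM in PEP-619WW, and S100a8 at 47798 and 43838 CPM. Tmsb4x, encoding the actin-binding thymosin β4, stood at 33485 and 29256 CPM, and Actb, encoding β-actin, at 9927 and 9695 CPM. Igkc, an immunoglobulin gene that neutrophils do not make, was also among the most abundant, at 4726 and 13100 CPM, and is described with the markers of other cells. Retnlg, a gene of the rule, stood at 18282 CPM in PEP-WT and 28267 CPM in PEP-619WW. Its log2 ratio of CPM, PEP-619WW over PEP-WT, was 0.63, and 0.74 without the cells low in Il1b, Csf3r and Cxcr2. By UMIs of Camp, Ngp and Ltf in the cell, the Retnlg ratio was 0.73 at 0, 0.16 at 1 to 2 and -0.29 at 3 to 9, so its direction turned. Such ratios carry below the exact 95% interval for a ratio of 2 counts, which covers counting error only.

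Across all genes, 3120 held at least 50 UMIs over the cells of both libraries. Of these, 102 were at least 2-fold higher in PEP-619WW (3.27% of genes) and 92 at least 2-fold lower (2.95%), together 6.22%, and the median log2 ratio was 0.08. These shares of all genes are the background for each count of list genes given below. Without the cells low in Il1b, Csf3r and Cxcr2, 85 of 2900 genes were at least 2-fold higher and 92 at least 2-fold lower.

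Interferon-stimulated genes stood out among the genes lower in PEP-619WW. Of 57 genes in a list of the type I interferon response, 53 were measured at 50 UMIs or more, 23 were at least 2-fold lower in PEP-619WW and 0 at least 2-fold higher, against the 2.95% and 3.27% of all genes given above. The counting interval lay below 0 for 46 and above 0 for 0, where it lay below 0 for 11.3% and above 0 for 15.1% of all genes. The median log2 ratio of the list was -0.96, from -3.00 for Ifi44 to 0.18 for Ifitm6. Summed over the list, the level was 44760 CPM in PEP-WT and 22911 CPM in PEP-619WW. The list was put together with earlier results of these data known, so its direction is a description.

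Antiviral effector genes were lower in PEP-619WW. Isg15, encoding a ubiquitin-like protein that is attached to viral and host proteins, was at 3753 CPM in PEP-WT and 1046 CPM in PEP-619WW (log2 ratio -1.84, interval -1.97 to -1.72). It was found in 96.6% and 67.8% of cells, and in 31.96% and 18.42% of B cells. The IFIT genes encode proteins that bind foreign RNA. Ifit1 was at 727 and 211 CPM (-1.78, -2.08 to -1.49), Ifit2 at 597 and 170 CPM (-1.81, -2.14 to -1.49) and Ifit3 at 1280 and 462 CPM (-1.47, -1.67 to -1.27). Ifit3 was found in 88.1% of cells in PEP-WT and 44.9% in PEP-619WW. Ifit3b, its close copy, was at 409 and 120 CPM, and reads of the 2 copies may be split between them by the counting. Rsad2, encoding viperin, was at 1253 and 562 CPM (-1.16, -1.34 to -0.97), and Ifi27l2a, the most abundant gene of the list, at 8762 and 3411 CPM (-1.36, -1.43 to -1.29).

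Sensors, regulators and feedback genes of the pathway were lower as well. Irf7, the transcription factor that amplifies interferon production, was at 834 CPM in PEP-WT and 355 CPM in PEP-619WW (-1.23, -1.470 to -1.003). Usp18, which removes ISG15 and dampens the receptor, was at 205 and 78.8 CPM (-1.38, -1.89 to -0.89). Ifih1 and Ddx58, the RNA sensors MDA5 and RIG-I, had log2 ratios of -1.10 (-1.70 to -0.54) and -0.69 (-1.16 to -0.24). The DNA-binding Ifi200 family members Ifi204, Ifi209 and Ifi213 had -1.14, -1.12 and -1.13, and Ifi211 had -2.13 (-2.93 to -1.40).

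Of the IFITM genes, which encode membrane proteins that block virus entry, Ifitm6 was the one not lower. Ifitm3 was at 5277 CPM in PEP-WT and 3180 CPM in PEP-619WW (-0.73, -0.81 to -0.65). Ifitm2 and Ifitm1 had -0.58 and -0.48, and Ifitm6 had 0.18 (-0.05 to 0.41). Of the Schlafen genes, which restrict viral protein synthesis and cell growth, Slfn5 had -1.63 (-1.88 to -1.38), Slfn4 -0.87 and Slfn1 -0.13 (-0.30 to 0.04).

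**Figure D3:**
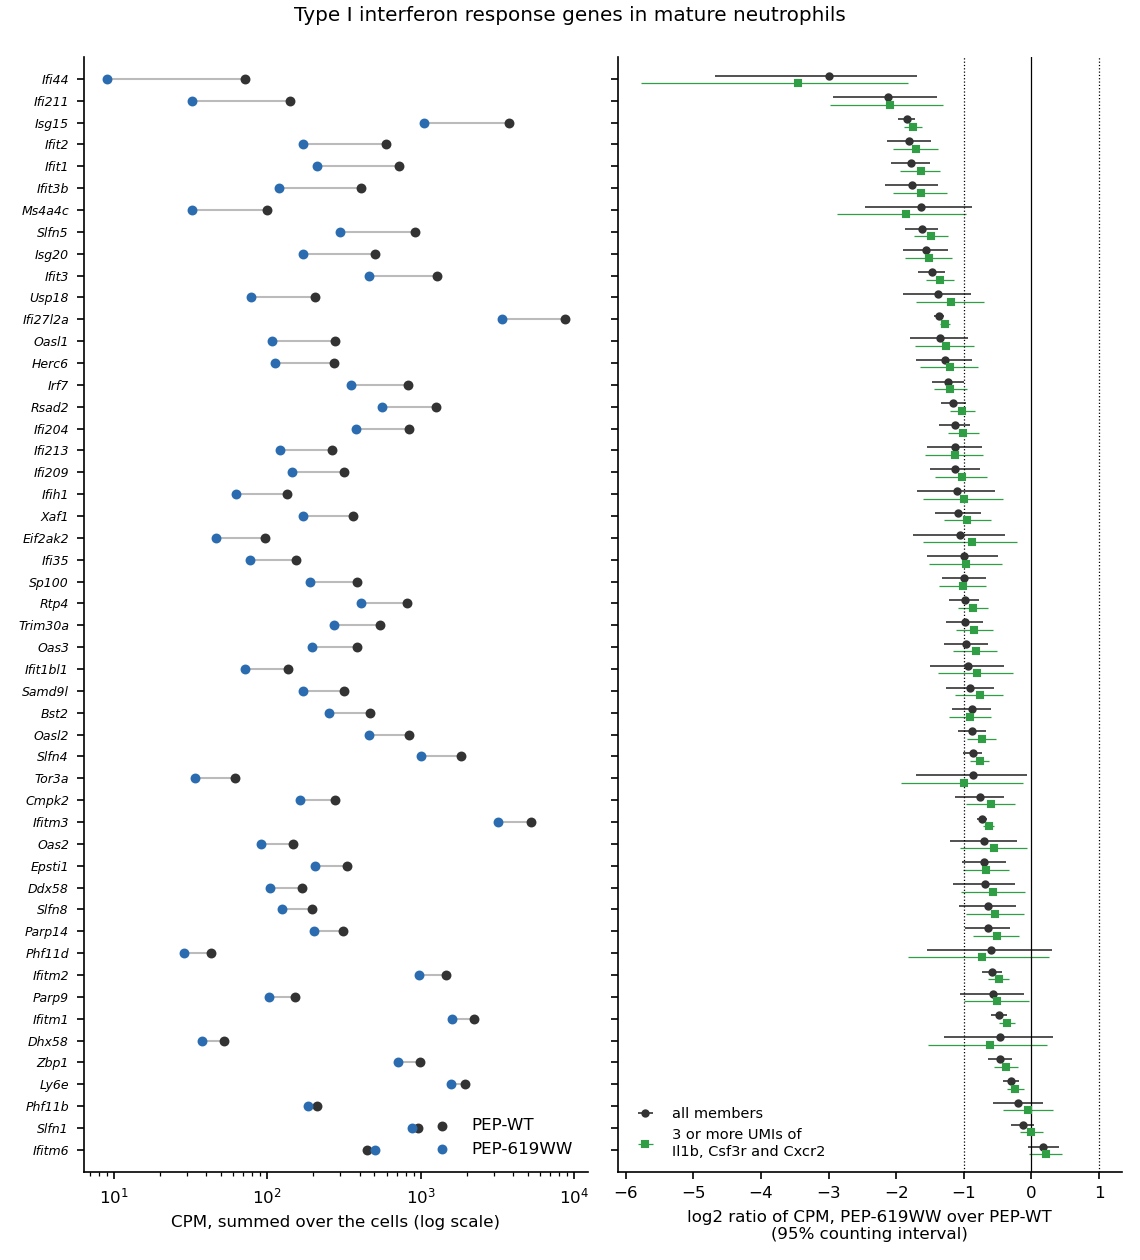
The left panel gives the CPM (log scale) of 50 of the 53 measured genes of the type I interferon response list in the mature neutrophils of PEP-WT (black) and PEP-619WW (blue). The right panel gives the log2 ratio with its 95% counting interval in all members (black) and in the cells with 3 or more UMIs of Il1b, Csf3r and Cxcr2 (green), with dotted lines at a 2-fold difference, and all black points but that of Ifitm6 lie left of 0.

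Promoters of these genes often hold the interferon-stimulated response element. Its core, taken here as TTTCNNTTTC on either strand (N is any base, and overlapping matches were kept), was searched in RefSeq promoters of GRCm38.p6, each 250 bases before to 50 bases after a start site. The motif was held by the promoters of 20 of the 41 measured list genes with an entry (48.8%), against 5.34% of the 2453 other measured genes with an entry and 3.99% of all 27025 genes. It was held by 10 of 20 genes at least 2-fold lower in PEP-619WW and by 10 of 21 that were not. A match is a description of the letters and not a binding site. Windows around the match are shown for 4 of the 10 genes at least 2-fold lower whose promoters held it, all 4 described above. Ifi27l2a, the most abundant gene of the list, is not among those 10. The windows read 5′ to 3′ on the gene's strand, and capitals mark the motif or its reverse complement.
Isg15 (chr4:156200855-156200916, minus strand): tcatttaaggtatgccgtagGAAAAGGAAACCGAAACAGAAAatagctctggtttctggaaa
Rsad2 (chr12:26456543-26456592, minus strand): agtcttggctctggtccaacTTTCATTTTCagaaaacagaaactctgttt
Ifit3 (chr19:34583353-34583402, plus strand): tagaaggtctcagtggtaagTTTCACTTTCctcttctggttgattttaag
Ifit1 (chr19:34640765-34640814, plus strand): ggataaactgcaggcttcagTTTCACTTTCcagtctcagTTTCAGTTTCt
The Isg15 window holds 3 overlapping matches and the Ifit1 window 2. The window of Ifit3b has the same letters as that of Ifit3.

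The lower level was spread over the cells. Each cell was thinned to 500 UMIs, a depth that every mature neutrophil reached, and UMIs of the list were counted. The median was 24 in PEP-WT (quartiles 18 and 32.5) and 10 in PEP-619WW (7 and 15.5). At least 20 UMIs were counted in 72.2% of PEP-WT cells and in 12.8% of PEP-619WW cells. The lower quartile of PEP-WT thus lay above the upper quartile of PEP-619WW, while the ranges, 5 to 60 and 0 to 45, overlapped. Unthinned, the list made up a median of 4.93% and 2.06% of the UMIs of a cell.

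The difference was present in each subset of the cells that was examined. With 3 or more UMIs of Il1b, Csf3r and Cxcr2 the medians of 500 UMIs were 25 in PEP-WT and 13 in PEP-619WW, and 20 of 52 measured genes were at least 2-fold lower, with a median log2 ratio of -0.87. The 53 PEP-619WW cells left out there had a median of 5. Where S100a8 and S100a9 made up at least 5% of the UMIs (266 and 155 cells), 18 of 50 genes were at least 2-fold lower, with a median of -0.89. In cells with a Ly6g UMI (96 and 99), 13 of 46 were, with a median of -0.56, so the difference was smaller there. Without any UMI of Camp, Ngp or Ltf, the medians of 500 UMIs were 25 and 12. As percent of all UMIs of a cell, the list stood at 5.22% and 2.60% in cells with 0 UMIs of Camp, Ngp and Ltf, at 4.32% and 1.78% with 1 to 2, and at 3.23% and 1.64% with 3 to 9. The list was lower in PEP-619WW at each step. Within a library, the list and the secondary granule genes outside the rule, both counted in the same 500 UMIs of a cell, had a Spearman's rho of -0.09 over 327 PEP-WT cells and 0.13 over 227 PEP-619WW cells. With Cxcr2 and Il1b together the list had 0.37 and 0.48, and with immediate early genes 0.31 and 0.44. It had 0.20 and 0.35 with MHC class I genes, -0.10 and 0.22 with Retnlg, and 0.01 and -0.33 with immunoglobulin genes. The 227 PEP-619WW cells include the 53 low in Il1b, Csf3r and Cxcr2, and their part in these coefficients was not tested. The part of these traits in the difference between the libraries was not tested.

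**Figure D4:**
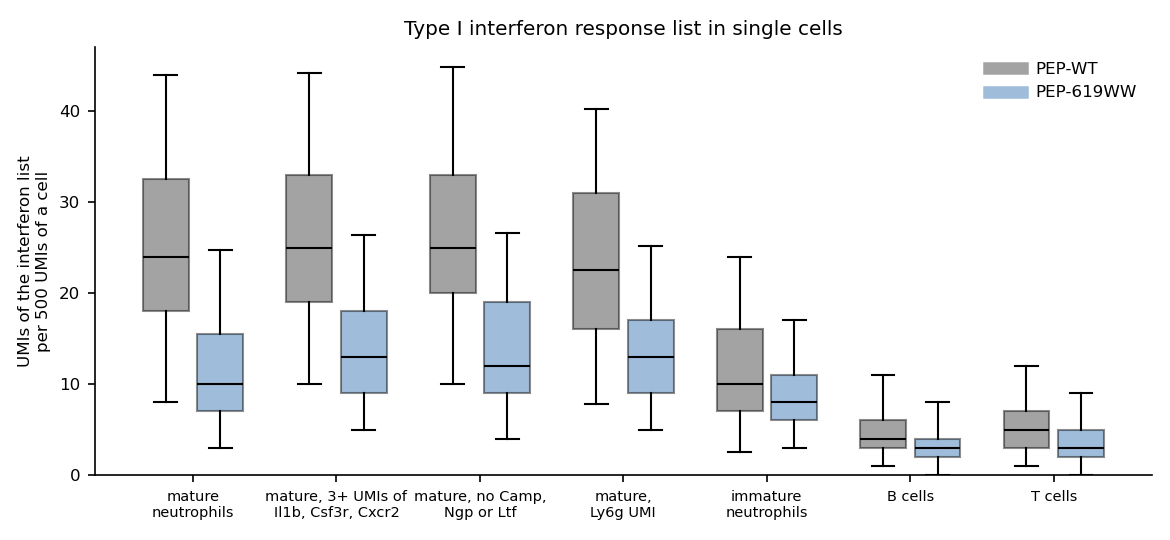
Boxes give the median and quartiles, and whiskers the 5th and 95th percentiles, of the UMIs of the type I interferon response list in cells thinned to 500 UMIs, for PEP-WT (grey) and PEP-619WW (blue). Mature neutrophils have medians of 24 and 10, and in each class shown the PEP-WT median is the higher.

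Mature neutrophils held more of these transcripts per 500 UMIs than immature neutrophils, T cells and B cells, and the list had a negative median ratio in the other classes too. Monocytes were not counted in this way. Immature neutrophils had medians of 10 and 8 of 500 UMIs, T cells (2 or more Cd3e UMIs) 5 and 3, and B cells (2 or more Cd79a UMIs) 4 and 3. Median log2 ratios of the list genes measured were -0.55 in immature neutrophils, -0.56 in monocytes (Ly6c2 and Ccr2), -0.76 in B cells and -0.30 in T cells. Whether the ratio differs between classes was not tested, since each class comes from the same pair of libraries.

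The direction was opposite in a second pair of count tables, deposited under the same samples as another run. The same rule found 227 of 9539 PEP-WT cells and 431 of 11029 PEP-619WW cells there, of which 4.85% and 3.48% held a Ly6g UMI. The median log2 ratio of the list was 1.19, with 29 of 45 measured genes at least 2-fold higher and 0 at least 2-fold lower in PEP-619WW. Isg15 had a log2 ratio of 1.07 and Ifit1 2.32. Some genes of neutrophil function described in this report also went the opposite way there. Cxcr2 had 0.65 (0.48 to 0.84), Lcn2 -0.50 (-0.72 to -0.28), Ccl6 -0.46 (-0.56 to -0.37), Cxcl2 -0.35 (-0.39 to -0.30), Cd14 -0.24 (-0.40 to -0.07) and Retnlg -1.69 (-1.79 to -1.60). Others kept their direction, such as Fpr2 at 0.72 (0.24 to 1.22) and Mmp9 at 0.22 (0.03 to 0.41). Those libraries differed from the pair above in their cells: Cd79a stood at 0.170 CPM over all PEP-WT cells and 65.5 CPM over all PEP-619WW cells, against 838 and 620 CPM, and the melanocyte gene Dct at 134 and 6.88 CPM, against 0.0642 and 0.0176 CPM. The cell numbers in the study's methods are those of this second run, and the design text does not tell the runs apart, so which of them the description of spleen at day 8 fits was not settled by the sources used here. The runs were not pooled.

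Genes that respond chiefly to interferon gamma had a median log2 ratio of -0.28, and its difference from that of the type I list was not tested. Of 20 measured, 2 were at least 2-fold lower in PEP-619WW and 0 at least 2-fold higher, against 2.95% and 3.27% of all genes. The interferon-inducible GTPases Gbp2, at 1461 and 1091 CPM, and Gbp7, at 571 and 369 CPM, had -0.42 (-0.56 to -0.28) and -0.63 (-0.87 to -0.39). Ifi47, a GTPase that type I interferon also induces, had -0.95 (-1.18 to -0.72). Irf1 had -0.17 (-0.35 to 0.02) and Igtp -0.16 (-0.42 to 0.10). The 2 genes at least 2-fold lower were Irf8 and Cxcl9, found in 11.9% and 6.73% of PEP-WT cells and in 7.93% and 3.96% of PEP-619WW cells. Irf8 is also a gene of monocytes and dendritic cells, whose part in its value was not tested.

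The receptors and kinases upstream did not reach 2-fold in either direction. Ifnar1 had a log2 ratio of -0.43 (-1.23 to 0.32), Ifnar2 -0.43 (-0.89 to 0.01), Jak1 0.22 (-0.14 to 0.57) and Jak2 -0.42 (-0.94 to 0.08). The 15 measured genes of interferon receptors and JAK-STAT signalling had a median of -0.42. For 4 of them the counting interval lay below 0 and for 1 above 0, against 11.3% and 15.1% of all genes. Only Socs3, a feedback inhibitor of cytokine receptors, was at least 2-fold lower among them. It was at 361 CPM in PEP-WT and 140 CPM in PEP-619WW (-1.37, -1.749 to -1.004), and was found in 42.8% and 22.9% of cells. Of 19 measured genes of MHC class I and the immunoproteasome 0 passed 2-fold, against 6.22% of all genes, and the median was -0.17. The counting interval lay below 0 for 8 and above 0 for 0, against 11.3% and 15.1% of all genes. H2-K1 was at 4201 and 4241 CPM and B2m at 3552 and 3746 CPM. Psmb9, an immunoproteasome subunit, had -0.45 (-0.63 to -0.28).

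Ptpn22 itself was low in these cells in both libraries. It held 36 UMIs in PEP-WT (44.5 CPM, 8.26% of cells) and 22 in PEP-619WW (39.4 CPM, 7.05% of cells), with a log2 ratio of -0.18 (-1.01 to 0.63). A 3′ count does not show the R619W change, so it does not check the genotype. Of 14 measured genes among Ptpn22, its relatives and partners and the Src-family kinases, 0 passed 2-fold and the median was -0.04. Lyn and Fgr, Src-family kinases of neutrophils, had 0.17 (-0.10 to 0.43) and -0.34 (-0.68 to -0.02). Csk, the kinase that holds them in check and binds the PTPN22 protein, had -0.11 (-0.59 to 0.36).

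Granule genes went in different directions. Of 10 measured genes of gelatinase granules and secretory vesicles, 2 were at least 2-fold higher in PEP-619WW and 0 at least 2-fold lower, against 3.27% and 2.95% of all genes, and the median log2 ratio was 0.39. Secondary granule genes had a median of 0.38 over 8 measured genes and of -0.01 over 7 in cells with a Ly6g UMI. The 8 include Ngp, whose count the rule caps, so this median is a description. Primary granule genes summed to 4391 CPM in PEP-WT and 3598 CPM in PEP-619WW. Only 1 of the 8 primary granule genes found was measured (-0.31), so this sum gives no direction for the list. Prtn3 was at 21.0 and 53.7 CPM, Elane at 1.24 and 1.79 CPM and Mpo at 3.71 and 3.58 CPM. The rule caps the counts of Mpo, Elane and Prtn3, so their values are a description. Itgam, the integrin chain CD11b, was at 234 CPM in PEP-WT and 505 CPM in PEP-619WW (1.11, 0.84 to 1.39) and was found in 41.0% and 55.1% of cells. Fpr2, a receptor for formylated peptides, was at 271 and 544 CPM (1.01, 0.75 to 1.27). Cd14, the co-receptor for bacterial lipopolysaccharide, was at 456 and 858 CPM (0.91, 0.71 to 1.11), and Mmp9, gelatinase, at 813 and 1160 CPM (0.51, 0.35 to 0.67). By UMIs of Camp, Ngp and Ltf in the cell, Mmp9 had 0.37 at 0, 0.79 at 1 to 2 and -0.04 (-0.42 to 0.34) at 3 to 9. Adam8, a membrane protease, went the other way, at 156 and 91.3 CPM (-0.77, -1.27 to -0.29). With a Ly6g UMI, Itgam, Fpr2 and Cd14 had 1.13, 1.07 and 0.96.

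Lcn2, encoding the iron-chelating secondary granule protein lipocalin-2, was at 1545 CPM in PEP-WT and 2661 CPM in PEP-619WW (0.78, 0.68 to 0.89). By UMIs of Camp, Ngp and Ltf in the cell, Lcn2 had 0.62 at 0, 0.56 at 1 to 2 and 0.01 (-0.21 to 0.24) at 3 to 9. Chil3, a chitinase-like protein of immature neutrophils and macrophages, was found in 18.96% of PEP-WT cells and 61.7% of PEP-619WW cells, with a log2 ratio of 0.97 (0.80 to 1.13). Its ratio was 3.29 (2.94 to 3.65) where S100a8 and S100a9 made up at least 5% of the UMIs, and it was found in 5.49% and 13.2% of B cells. Mmp8, the collagenase of secondary granules, was at 343 and 385 CPM (0.16, -0.10 to 0.43), and Hp, haptoglobin, had -0.08 (-0.21 to 0.05). Lyz2, lysozyme, was lower, at 4087 and 2788 CPM (-0.55, -0.64 to -0.46). It was high in the PEP-WT cells at the edges of the rule, and their part in this ratio was not tested. Of the NADPH oxidase genes, which make oxidants, 0 of 6 passed 2-fold. Ncf1 had 0.73 (0.49 to 0.97) and Cyba 0.08 (-0.04 to 0.19).

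Adhesion and chemoattractant receptors went in both directions. Of 19 measured, Itgam and Fpr2 were at least 2-fold higher in PEP-619WW and 0 were at least 2-fold lower. Itgb2, the partner chain of CD11b, had 0.57 (0.30 to 0.83), and C5ar1, the receptor for complement C5a, 0.49 (0.24 to 0.73). Cxcr2 was at 886 CPM in PEP-WT and 609 CPM in PEP-619WW (-0.54, -0.73 to -0.35). Csf3r, a gene of the rule, was at 1273 and 935 CPM. Where S100a8 and S100a9 made up at least 5% of the UMIs, the ratios were -0.46 for Cxcr2 and -0.53 for Csf3r. With a Ly6g UMI they were -0.32 and 0.06, so the Csf3r difference was not seen there. Cxcr4, which holds neutrophils in marrow, had 0.28.

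Inflammatory genes were also divided. Of 25 measured, 3 were at least 2-fold lower in PEP-619WW and 0 at least 2-fold higher, against 2.95% and 3.27% of all genes, with a median of -0.22. Il1b was at 8197 CPM in PEP-WT and 5827 CPM in PEP-619WW (-0.49, -0.55 to -0.43). Its ratio was -0.48 where S100a8 and S100a9 made up at least 5% of the UMIs and -0.32 with a Ly6g UMI. The 3 genes at least 2-fold lower were Socs3, Ier3 and Ccl4. Ier3, a stress-induced survival gene, was at 470 and 131 CPM (-1.84, -2.23 to -1.48), and Ccl4, a chemokine, at 211 and 57.3 CPM, in 8.87% and 9.25% of cells. Osm, the cytokine oncostatin M, had -0.80 (-1.07 to -0.53). Cxcl2, a ligand of Cxcr2, was higher, at 2066 and 2969 CPM (0.52, 0.42 to 0.62), and so was the chemokine Ccl6, at 1592 and 2609 CPM (0.71, 0.60 to 0.82). By UMIs of Camp, Ngp and Ltf in the cell, Ccl6 had 1.04 at 0, 0.31 at 1 to 2 and -0.37 (-0.64 to -0.10) at 3 to 9, so its direction turned. Cxcl2 had 0.47, 0.36 and 0.49.

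Some other genes of fixed lists stood out. Nr4a1, an early-response nuclear receptor, was at 398 CPM in PEP-WT and 806 CPM in PEP-619WW (1.02, 0.81 to 1.23), whereas Fos was at 3304 and 3399 CPM. Stfa2, a stefin that inhibits cathepsins, was at 77.8 and 358 CPM (2.20, 1.79 to 2.63) but was found in only 4.89% and 8.37% of cells, and stefin copies share sequence, so its counts are uncertain. Anxa2, encoding annexin A2, was at 876 and 405 CPM (-1.11, -1.34 to -0.90). Of survival and cell death genes, 0 of 19 were at least 2-fold higher and Bid and Casp4 were at least 2-fold lower. Without the cells low in Il1b, Csf3r and Cxcr2, 1 of 19 was at least 2-fold higher and 0 were at least 2-fold lower. With a Ly6g UMI these counts were 1 and 0 of 10, so the calls depended on which cells were kept. Mcl1, which keeps neutrophils alive, was at 1961 and 1807 CPM (-0.12).

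**Figure D5:**
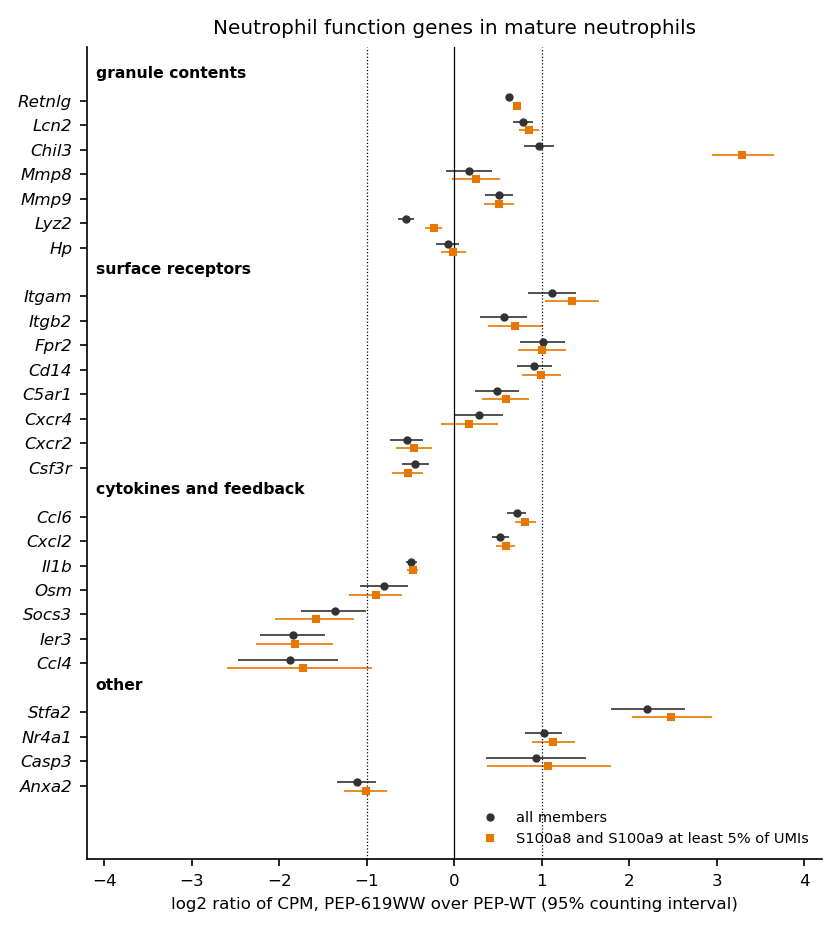
Points give the log2 ratio of CPM, PEP-619WW over PEP-WT, with 95% counting intervals, for genes of neutrophil function in all members (black) and in cells with at least 5% of UMIs from S100a8 and S100a9 (orange). Dotted lines mark a 2-fold difference. Itgam, Fpr2 and Stfa2 lie beyond the right line and Socs3, Ier3, Ccl4 and Anxa2 beyond the left one in all members, and Chil3 moves from 0.97 to 3.29.

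The 12 genes furthest down outside the marker lists were led by the same pathway. They were Ifit1bl2 (-3.23, -4.90 to -1.94), Gng11 (-2.68, -4.05 to -1.56), Trim30c (-2.66, -4.17 to -1.45), Ifi211, Gm13822, Ier3, Isg15, Ifit2, Irf8, Ifit1, Ifit3b and Smox. Ifit1bl2 and Trim30c belong to families of interferon-induced genes but held only 73 and 61 UMIs in all. Gng11, a G protein subunit abundant in platelets, was at 80.3 and 12.5 CPM, while Pf4, a platelet chemokine, was at 185 and 116 CPM. Smox, spermine oxidase, was at 119 and 37.6 CPM (-1.66, -2.41 to -0.96).

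The 12 genes furthest up were taken with the same limit on detection. They were Hilpda, Klhl6, Ccl2, Syne1, Cpne2, Gm19951, Pdha1, Cdv3, Txndc5, Ubp1, Eif4g3 and Sptbn1, and they shared no list. All were low, between 21.0 and 81.6 CPM in PEP-WT. Ccl2, a monocyte chemokine, was at 81.6 CPM in PEP-WT and 287 CPM in PEP-619WW (1.81, 1.39 to 2.25), found in 7.03% and 16.3% of cells. Hilpda, a hypoxia-induced lipid droplet protein, was at 35.8 and 154 CPM (2.10, 1.48 to 2.76). Without the cells low in Il1b, Csf3r and Cxcr2, Ccl2 had 1.96 and Hilpda 2.20. With a Ly6g UMI, Ccl2 had 0.38 (-0.27 to 1.05) and Hilpda 1.72 (0.85 to 2.66). In cells without a Ly6g UMI they had 2.89 (2.29 to 3.53) and 2.39 (1.48 to 3.39), so the Ccl2 difference lay mostly in those cells. Txndc5, an enzyme of the secretory pathway that plasma cells use, had 1.46 (0.64 to 2.32) in all members and 0.76 (-0.22 to 1.74) without those cells.

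Transcripts of other cells differed between the libraries and moved with some of these results. Immunoglobulin genes summed to 7289 CPM in PEP-WT and 19408 CPM in PEP-619WW, with 9 of 10 measured at least 2-fold higher, and 3 of 9 without the cells low in Il1b, Csf3r and Cxcr2. In cells with a Ly6g UMI the direction turned, with 3 of 7 at least 2-fold lower, 1 at least 2-fold higher and a median log2 ratio of -0.90, and plasma cell markers had a median of -0.86. Over all members, plasma cell markers summed to 502 and 1476 CPM, with 0 UMIs of Tnfrsf17. NK and cytotoxic markers summed to 1045 and 1519 CPM, with Ncr1, Klra4 and Klra8 at 0. In the opposite direction, MHC class II genes summed to 3536 and 1379 CPM with 5 of 5 at least 2-fold lower. Their median log2 ratio was -1.39, and -2.14 without the cells low in Il1b, Csf3r and Cxcr2. Erythroid genes summed to 3325 and 740 CPM with 4 of 4 at least 2-fold lower, and basophil and mast cell markers to 283 and 10.7 CPM. Monocyte and macrophage markers summed to 2469 and 1764 CPM, with Csf1r at 0 by the rule. Eosinophil markers summed to 30.9 and 19.7 CPM, with Epx, Ear1 and Ear6 at 0. Doublets were not called, and the part of these transcripts in the ratios above was not tested.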

How the data were processed

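By the design text, splenocytes were sorted as live CD45+ cells and made into droplet 3′ single-cell RNA libraries. Of the pair of runs deposited per genotype, the one whose cell numbers the methods do not give was compared. The authors deposited raw UMI counts per gene and cell, with no normalization. The submitters' processing notes name Cell Ranger 6.0.0 and mm10, and the methods another release of Cell Ranger. Of 32285 gene identifiers, 32158 were matched to a symbol.

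Counts were read with Python 3.11.15, pandas 2.3.3 and scipy 1.17.1. Mature neutrophils were taken by the rule in the report, and their counts were summed per library and scaled to CPM. The members and gene lists were chosen with earlier results of these data known. With 1 library per genotype there was no test, and intervals (exact binomial for shares, Newcombe for differences of shares, exact conditional for ratios of CPM, all 95%) cover counting error only. A 2-fold difference was called among genes with at least 50 UMIs over both libraries. Ratios were run on simulated counts drawn independently for each gene, the model from which the interval is derived. UMIs clustered within cells were not simulated, so that run cannot show how the intervals behave with them.

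Genes named were, in each direction, the 12 with the largest log2 ratio that were detected in at least 10% of the cells of 1 library, had an interval without 0 and kept their direction under other scalings. Rule genes, sex-linked, receptor, immunoglobulin and hemoglobin genes and markers of other cells were left out there. The 10 most abundant genes and the most abundant genes of each list were also named, and the remaining genes were chosen after their values were seen. Of the alternatives, 16 were planned and 5 were added after seeing the data. Doublets were not called. The libraries shared 39 cell barcodes, and 0 of them belonged to members. Some measured genes are not reported here.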

Additional observations from a re-analysis of the deposited data

Results flagged for a closer look

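A second pair of count tables, which the comparisons do not use, also held cells that met the rule, and the cell numbers in the methods are those of that pair. There were 227 of them in PEP-WT and 431 in PEP-619WW, with median depths of 1430 and 1598 UMIs. Of the cells of the compared pair 29.4% and 43.6% held a Ly6g UMI, and of these 4.85% and 3.48%. Mitochondrial genes made up a median of 3.50% and 0.344% of their UMIs, against 0.976% and 1.13%. The type I interferon response list summed to 9501 CPM in PEP-WT and 18243 CPM in PEP-619WW there, the opposite order to the compared pair, and the cause was not tested.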

How the results depend on the processing

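No paired analysis was possible because each genotype had 1 library. Counts of 2-fold genes depend on the minimum UMI count, genes with few UMIs limit precision, and the causes of the other changes below were not tested.

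The type I interferon median, -0.96, was -1.05 when centred on all genes, -1.17 as a mean over cells, -1.14 in cells thinned to 500 UMIs, -0.93 with 50 or more UMIs of S100a8 and S100a9, -0.92 with 4 or more of Csf3r and Retnlg, -0.92 with fewer than 3 of Camp, Ngp and Ltf, -0.56 with a Ly6g UMI, -0.87 with 3 or more of Il1b, Csf3r and Cxcr2, -0.89 with S100a8 and S100a9 at 5% or more of UMIs and -0.91 with immunoglobulin genes under 1%. The gelatinase and secretory vesicle median, 0.39, was 0.30 centred, 0.24 as a mean over cells, 0.56 thinned, 0.47 with fewer than 3 of Camp, Ngp and Ltf, 0.47 with a Ly6g UMI, 0.86 with fewer than 2 UMIs of other cell types, 0.50 with 3 or more of Il1b, Csf3r and Cxcr2 and 0.56 with immunoglobulin genes under 1%.

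The number of genes at least 2-fold higher in PEP-619WW, 102, was 239 as a mean over cells, 35 thinned, 44 with a Ly6g UMI, 22 with fewer than 2 UMIs of other cell types, 332 at 20 or more UMIs, 28 at 100 or more and 1363 without a filter. The number of genes at least 2-fold lower in PEP-619WW, 92, was 61 thinned, 56 with a Ly6g UMI, 55 with fewer than 2 UMIs of other cell types, 167 without the cap on Camp, Ngp and Ltf, 205 at 20 or more UMIs and 932 without a filter.

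The PEP-WT share, 2.21%, was 0.648% with a Ly6g UMI, 0.547% with fewer than 2 UMIs of other cell types, 1.79% with S100a8 and S100a9 at 5% or more and 2.82% without the cap. The PEP-619WW share, 2.65%, was 1.15%, 0.653%, 1.81% and 4.85% under these, and 2.11% with 50 or more UMIs of S100a8 and S100a9, 2.05% with fewer than 3 of Camp, Ngp and Ltf, 2.03% with 3 or more of Il1b, Csf3r and Cxcr2 and 1.89% with immunoglobulin genes under 1%.

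With fewer than 2 UMIs of other cell types (81 and 56 cells), Txndc5 reversed to -0.53 and Sptbn1 to -0.12. In the other run the PEP-619WW share was 3.91%, 364 genes were at least 2-fold higher, the gelatinase median was 0.22 and the interferon median reversed to 1.19. There Ccl2 reversed to -0.17, Txndc5 to -0.16, Ifit1bl2 to 1.02, Trim30c to 1.84, Ifi211 to 0.13, Gm13822 to 1.75, Ier3 to 0.39, Isg15 to 1.07, Ifit2 to 2.91, Irf8 to 0.67, Ifit1 to 2.32, Ifit3b to 2.65 and Smox to 0.19. These reversals are among the genes furthest up and down, and genes of neutrophil function that also turned in the other run are given above. No other alternative reversed a gene furthest up or down.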

Other observations

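Genes of housekeeping and metabolism are described beside the shares of all genes, 3.27% at least 2-fold higher in PEP-619WW and 2.95% at least 2-fold lower. Most genes of any kind thus stayed within 2-fold. Of 17 measured genes of glycolysis and hypoxia, Hilpda was at least 2-fold higher in PEP-619WW, 0 were at least 2-fold lower, and the median log2 ratio was 0.24. Gpi1, the second enzyme of glycolysis, was at 294 CPM in PEP-WT and 475 CPM in PEP-619WW (0.69, interval 0.43 to 0.95), whereas Pkm, pyruvate kinase, was at 476 and 437 CPM (-0.12, -0.36 to 0.11). Of 10 measured genes of iron handling and redox, 0 passed 2-fold, and the ferritin chains Fth1 and Ftl1 had -0.09 and -0.43. Of 80 measured cytosolic ribosomal protein genes 0 passed 2-fold, with a median of 0.13. Without the cells low in Il1b, Csf3r and Cxcr2 that median was -0.16, so its direction turned.

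Receptors for microbial products and antibody went in both directions. Of 18 measured, 0 passed 2-fold, against 6.22% of all genes, and the median was -0.16. Log2 ratios ran from -0.67 to 0.91, the latter for Cd14. The counting interval lay above 0 for 3 and below 0 for 5, against 15.1% and 11.3% of all genes. Tyrobp and Fcer1g, adaptor chains of activating receptors, had -0.13 (-0.21 to -0.06) and -0.19 (-0.29 to -0.09). The Fc receptors Fcgr3 and Fcgr4 went in opposite directions, at -0.42 (-0.66 to -0.19) and 0.37 (0.14 to 0.59).

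Of 17 measured myeloid transcription factors, Id2, an inhibitor of helix-loop-helix factors, was at least 2-fold higher and Irf8 at least 2-fold lower. Id2 was at 152 CPM in PEP-WT and 315 CPM in PEP-619WW (1.05, 0.71 to 1.40), and its ratio was 0.98 where S100a8 and S100a9 made up at least 5% of the UMIs. Hsp90b1, a chaperone of the secretory pathway, had 1.18 (0.85 to 1.51) in all members, 0.02 (-0.58 to 0.62) in those cells and -0.71 (-1.35 to -0.08) with a Ly6g UMI, so its direction depended on which cells were kept.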
